A study of Mus musculus with 8 samples.

Results

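The 9 genes described here encode the receptor chains for the interferons and for TNF, together with the Janus kinases (JAKs) that the interferon receptors use: Ifnar1 and Ifnar2, Ifngr1 and Ifngr2, Tnfrsf1a and Tnfrsf1b, and Jak1, Jak2 and Tyk2. They were chosen by name, 9 of the 20408 genes found in any of the 8 expression tables, and all 9 were measured in every table and passed the filter on low values. Their levels were taken over the 7159 cells, of 8204 deposited, in which at least 1 transcript of Pecam1 (CD31, the endothelial adhesion protein used for the sort) was counted. The series asked how the ECs of spontaneous and implanted mammary tumours differ in their answer to cGAMP, a cyclic dinucleotide that activates the innate immune sensor STING.

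ECs were sorted from 4 groups of female mice, each with 2 libraries. Spontaneous tumours grew in MMTV-PyMT mice, which carry the polyoma middle T oncogene under a mammary tumour virus promoter active in the mammary epithelium, so the transgene is in every cell of the mouse, vessels included, while its promoter acts mainly in that epithelium. Implanted tumours were made by culturing MMTV-PyMT tumour cells and placing them in the mammary fat pad of mice aged 8 to 9 weeks, whose own vessels supplied them, whereas mice with spontaneous tumours were treated from the age of 9 weeks. Each tumour received 70 µl of PBS or 14 µg of cGAMP in the same volume and was taken 3 h later, and live CD45-/CD31+ cells were sorted as tumor endothelial cells. The labels give the strain as C57BL/6, whereas the study's methods describe an FVB background for the transgenic line, and this was not settled here. The study's methods speak of a pair of mice for each group, but nothing ties each library to 1 mouse, so p-values measure only the spread between these libraries, which may be technical.

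Interferon receptors have no enzyme activity of their own. Type I interferons bring Ifnar1, which holds Tyk2, together with Ifnar2, which holds Jak1, and interferon-γ joins Ifngr1 with Ifngr2, which bring Jak1 and Jak2. The JAKs then phosphorylate STAT proteins, which move to the nucleus and switch on interferon-stimulated genes, among them the inhibitors Socs1 and Usp18. TNF signals through other means: Tnfrsf1a carries a death domain and can drive either inflammatory genes through NF-κB or cell death through Casp8, while Tnfrsf1b lacks the death domain, recruits TRAF adaptors and is known for expression in endothelial and immune cells.

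The ECs expressed the defining endothelial markers: all 10 genes of a pan-endothelial list were detected in every library, at a summed level of 6323 to 7510 CPM (transcripts, counted by their molecular identifiers or UMIs, per 1000000 of a cell's total and averaged over cells). The list includes Pecam1, whose detection was fixed by the choice of cells and which adds to that sum. Among the Pecam1 > 0 cells the median was 9523 to 14708 UMIs in 7 libraries and 3049 in implanted cGAMP replicate 1, where 37.9% of these cells had under 2000 UMIs against 3.28% to 10.6% elsewhere. Marker lists of other cells also differed. Although the sort had gated out CD45+ cells, the 14-gene immune list summed to 297 and 89.6 CPM in implanted cGAMP replicates 1 and 2 and to between 17.9 and 47.5 CPM in the other 6 libraries, with Adgre1, Cd3d or S100a9 at 0 in some of those, and the epithelial tumour list reached 734 CPM in implanted cGAMP replicate 1 against 90.3 to 501 CPM. The 10-gene mural list summed to 623 to 956 CPM in 3 of the 4 spontaneous libraries and to 191 to 399.7 CPM in the other 5. The 6-gene fibroblast list went from 25.4 and 14.97 CPM after PBS to 103 and 66.3 CPM after cGAMP in implanted tumours, and from 17.9 and 99.9 CPM to 149.9 and 135 CPM in spontaneous tumours. The part of these cells in the results was not tested. Where leaving out the named non-endothelial clusters, the cells with under 2000 UMIs or the shallow cluster described below changed a call of a member over all ECs, the value is given beside it. Of the barcodes, 3 occurred in more than 1 library among the Pecam1 > 0 cells.

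Of the members, 3 lie together. In the GRCm38 (mm10) build with the GENCODE annotation, Ifnar2 (chr16:91372783-91405589), Ifnar1 (chr16:91485238-91507441) and Ifngr2 (chr16:91547072-91565623) stand in 1 cluster of 192841 bases on chromosome 16, all on the plus strand, with Il10rb, a chain of the interleukin-10 receptor family, between the first pair. The other members are spread over the genome: Ifngr1 (chr10:19591949-19610229), Tnfrsf1a (chr6:125349362-125362484) and Jak2 (chr19:29251828-29313080) on the plus strand, and Tnfrsf1b (chr4:145213463-145246870), Jak1 (chr4:101152367-101265282) and Tyk2 (chr9:21104068-21131243) on the minus strand. Each is the whole protein-coding gene, exons and introns included. Ifnar2 overlaps the readthrough gene Gm21970 on the same strand. Tyk2 overlaps the antisense transcript 1700084C06Rik, whose reads could be shared if strand was not used in counting. Jak1 overlaps Raver2 and the snRNA Gm24468 on the opposite strand and the pseudogene Gm12785 on its own strand. Strand cannot separate the reads of the same-strand partners Gm21970 and Gm12785.

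The promoters of 5 members to which the comparisons below return most are shown so that their starts can be set beside those values. Each is the stretch before the RefSeq transcription start in GRCm38.p6, 5′ to 3′ on the gene's own strand, and capitals mark a match to 1 of 3 motifs searched on both strands: the core of the interferon-stimulated response element (ISRE, here GAAA, any 2 bases, GAAA), the γ-activated site (GAS, TTCNNNGAA) and the NF-κB site (here GGGA, any 2 bases, TTCC). No match overlapped another.
Ifnar1, chr16:91484965-91485218, plus strand: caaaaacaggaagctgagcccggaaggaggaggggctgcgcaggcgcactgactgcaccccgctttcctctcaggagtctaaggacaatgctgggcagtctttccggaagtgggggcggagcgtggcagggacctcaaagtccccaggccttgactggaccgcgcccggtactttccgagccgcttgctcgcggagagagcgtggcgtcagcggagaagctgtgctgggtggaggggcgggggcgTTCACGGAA
Ifnar2, chr16:91372533-91372782, plus strand: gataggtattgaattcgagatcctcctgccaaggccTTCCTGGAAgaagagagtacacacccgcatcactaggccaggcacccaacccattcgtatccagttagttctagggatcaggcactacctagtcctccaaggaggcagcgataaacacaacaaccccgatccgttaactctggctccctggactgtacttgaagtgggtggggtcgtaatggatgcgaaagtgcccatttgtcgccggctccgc
Ifngr1, chr10:19591699-19591948, plus strand: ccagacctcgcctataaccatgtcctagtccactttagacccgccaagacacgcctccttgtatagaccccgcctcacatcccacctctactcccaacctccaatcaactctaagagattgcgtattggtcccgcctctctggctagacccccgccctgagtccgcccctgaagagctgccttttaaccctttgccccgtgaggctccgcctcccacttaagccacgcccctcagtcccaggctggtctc
Tnfrsf1b, chr4:145246871-145247120, minus strand: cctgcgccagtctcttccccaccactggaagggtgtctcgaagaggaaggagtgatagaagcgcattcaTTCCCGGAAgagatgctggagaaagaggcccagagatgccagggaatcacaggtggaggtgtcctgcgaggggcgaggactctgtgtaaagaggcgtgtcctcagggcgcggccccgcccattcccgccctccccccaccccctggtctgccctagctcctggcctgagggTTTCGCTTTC
Jak2, chr19:29251553-29251802, plus strand: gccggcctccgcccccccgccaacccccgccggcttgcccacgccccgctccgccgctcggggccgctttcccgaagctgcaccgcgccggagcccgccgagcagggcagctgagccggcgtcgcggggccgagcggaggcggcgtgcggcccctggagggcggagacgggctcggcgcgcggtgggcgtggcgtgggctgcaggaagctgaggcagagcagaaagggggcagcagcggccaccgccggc
The window for Ifnar1 runs 4 bases past the start, because its GAS match begins 5 bases before it. Ifnar2 held a GAS match 214 bases before its start, and Tnfrsf1b held a GAS match at 181 and an ISRE core at 10 bases before its start. No match was found in the windows of Ifngr1 and Jak2, nor in those of Jak1 and Tyk2, whereas Tnfrsf1a held a GAS match and Ifngr2 an NF-κB match. Over 32851 RefSeq promoter windows, 250 bases before to 50 after the start, 3.44% held the ISRE core, 8.30% the GAS and 1.47% the NF-κB motif. A match describes letters in a window and is not evidence of binding.

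The Pecam1 > 0 cells were clustered after the members, the other genes of their pathways and the genes that cGAMP raised at least 2-fold had been left out, so that neither the members nor the treatment's strongest genes drew the vessel types. Clusters were named from marker lists as arterial-like (1510 cells), stalk-like (1126 cells, ECs with postcapillary venous genes such as Selp and Ackr1), tip-like (891 cells, with Pgf, Apln and Esm1, genes of sprouting vessels), AQP7+-like (276 cells, with the fatty acid handling genes Aqp7, Lpl and Cd36), proliferative-like (323 cells) and lymphatic-like (331 cells). A cluster of 1090 cells with Ptn among its leading genes passed no list and is called the Ptn cluster. Another 1200 cells, with a median of 1562 UMIs and led by milk protein and secretory genes such as Spp1 and Wfdc18, are called the shallow cluster. The remaining cells fell in mural-like, epithelial tumour-like and small unnamed clusters, where too few libraries had 20 cells for the members to be ranked. Highest and lowest below therefore refer to the ranked types and clusters alone. The type names follow the study's vocabulary, but clusters rebuilt in this way may differ from its own.

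Among the interferon receptors, Ifnar1 and Ifngr2 were highest in or near tip-like ECs and Ifngr1 was highest in AQP7+-like ECs. For Ifnar2 no type stood apart from the next in order. These levels are a description over libraries, with no test. Those of proliferative-like ECs rest on the 4 PBS libraries alone, because no cGAMP library held 20 of these cells, and those of lymphatic-like ECs on 7 libraries, so that their place among the other types also carries the treatment. Ifnar1, the type I receptor chain that holds Tyk2, had 41.1, 82.1 and 113 CPM as its lowest, median and highest library in tip-like ECs and 25.5, 38.8 and 50.3 CPM in arterial-like ECs. The tip-like value lay above the mean of the other 4 types held by every library in 8 of 8 libraries, by a log2 difference of 0.72 ± 0.42 (SD). Below tip-like ECs, neighbours in the order of Ifnar1 (by mean log2 level), from the Ptn cluster (mean 49.4 CPM) over AQP7+-like (51.2), lymphatic-like (43.1), stalk-like (42.8), proliferative-like (41.4) and arterial-like ECs (38.6) to the shallow cluster (35.5), differed by less than the spread between libraries. In the 4 PBS libraries, arterial-like ECs had 44.6 CPM and proliferative-like ECs 41.4 CPM, the reverse of this order. Types further apart could differ: the Ptn cluster exceeded arterial-like ECs in 8 of 8 libraries, by a log2 difference of 0.36 ± 0.12 (SD).

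Ifngr2, the signal-transducing chain of the interferon-γ receptor, was at 56.6 ± 12.8 CPM (SD, n = 7) in lymphatic-like and 53.0 ± 6.91 CPM (SD, n = 8) in tip-like ECs, which differed by less than their spread. The next in order, the shallow cluster at 39.2 CPM, was below tip-like ECs in all 8 libraries, and arterial-like ECs were lowest at 21.8 ± 2.84 CPM (SD, n = 8). Tip-like ECs exceeded arterial-like ECs in 8 of 8 libraries, by a log2 difference of 1.24 ± 0.32 (SD), and the lowest tip-like library (42.5 CPM) lay above the highest arterial-like one (24.8 CPM).

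Ifngr1, the ligand-binding chain of the same receptor, had another order. It was highest in AQP7+-like ECs, at 179, 242 and 526 CPM in the lowest, median and highest library, followed by tip-like ECs at 99.0, 216 and 317 CPM. AQP7+-like exceeded tip-like ECs in 7 of 8 libraries, by a log2 difference of 0.51 ± 0.44 (SD). Lymphatic-like ECs had the lowest Ifngr1, 63.8 ± 14.4 CPM (SD, n = 7), below AQP7+-like ECs in 7 of 7 libraries by a log2 difference of 2.16 ± 0.45 (SD), although they were at the top of the order for Ifngr2. Between these ends, arterial-like (168), stalk-like (162) and proliferative-like ECs (157), the Ptn cluster (148) and the shallow cluster (143 CPM) did not differ beyond their spread as neighbours of each other. The step from the shallow cluster down to lymphatic-like ECs did, at 1.10 ± 0.45 (SD) on the log2 scale in 7 of 7 libraries. Ifnar2, the chain that binds type I interferon most tightly, ranged from 87.1 CPM in proliferative-like ECs (PBS libraries) to 142 CPM in lymphatic-like ECs (7 libraries), and no neighbouring pair in its order differed beyond its spread. In the 3 libraries that held both types, the values were 83.7 and 112 CPM. Types further apart in the order of Ifnar2 could differ beyond their spread. Lymphatic-like ECs exceeded the Ptn cluster and arterial-like ECs in 7 of 7 libraries, by log2 differences of 0.36 ± 0.19 (SD) and 0.30 ± 0.21 (SD).

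The death-domain receptor Tnfrsf1a was highest in stalk-like ECs. Its lowest, median and highest stalk-like libraries had 298, 383 and 418 CPM, above the next type, the Ptn cluster (267 CPM), in 8 of 8 libraries by a log2 difference of 0.51 ± 0.18 (SD). Proliferative-like, arterial-like and AQP7+-like ECs and the shallow cluster followed at 231, 217, 216 and 217 CPM. Tip-like ECs were lower, at 184 ± 11.8 CPM (SD, n = 8), and lymphatic-like ECs lowest, at 126 ± 19.5 CPM (SD, n = 7). The stalk-like level exceeded the tip-like one by a log2 difference of 1.03 ± 0.16 (SD) in 8 of 8 libraries, and these groups of libraries did not overlap.

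Tnfrsf1b, the receptor without a death domain, was also high in stalk-like ECs (38.3 ± 5.28 CPM (SD, n = 8)) but equally in arterial-like ECs (40.5 ± 4.38 CPM (SD, n = 8)), which differed by less than their spread. Arterial-like ECs exceeded the mean of the other 4 types in 8 of 8 libraries, by a log2 difference of 0.79 ± 0.53 (SD). Tip-like ECs averaged 22.6 CPM but spread from 7.995 to 51.3 CPM, with the highest values in the implanted cGAMP libraries, as given below. Lymphatic-like ECs had the least, with a mean of 7.56 CPM and no transcript counted in the 21 lymphatic-like cells of spontaneous PBS replicate 2. These low values rest on few molecules, from 0 to 17 UMIs per library in lymphatic-like ECs, so that their order is loose.

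Of the kinases, Jak2 was, like Tnfrsf1a, highest in stalk-like ECs among the ranked types. Jak1 was high in stalk-like ECs and the Ptn cluster, and no neighbours in the order of Tyk2 differed beyond their spread. Jak1, which serves both interferon receptors, was at 335 ± 32.2 CPM (SD, n = 8) in stalk-like and 232 ± 10.8 CPM (SD, n = 8) in arterial-like ECs, a log2 difference of 0.53 ± 0.15 (SD) with the same direction in 8 of 8 libraries. It was lowest in lymphatic-like ECs (202 CPM), though no step between neighbours in its order exceeded its spread. The Ptn cluster had 309 CPM of Jak1. Stalk-like ECs were above that cluster in 5 of 8 libraries, by a log2 difference of 0.12 ± 0.18 (SD). An unranked 60-cell cluster led by Ccl20, with a median of 13552 UMIs, held 0.838% of the cells but 3.27% of the Jak1 UMIs. Stalk-like ECs held 15.7% and 22.2%. The Ccl20 cluster also held 2.11% of the Ifnar2 and 2.70% of the Ifngr2 UMIs, and 0.490% to 1.14% of those of the other members. Jak2, the partner kinase of the interferon-γ receptor, had 77.5, 101 and 152 CPM in its lowest, median and highest stalk-like library against 34.3, 41.6 and 54.5 CPM in arterial-like ECs, a log2 difference of 1.28 ± 0.35 (SD) in 8 of 8 libraries. Stalk-like ECs lay above the mean of the other 4 types in 8 of 8 libraries for Jak2 and in 8 of 8 for Jak1, by 0.75 ± 0.15 (SD) and 0.35 ± 0.10 (SD) on the log2 scale. Tyk2, the kinase held by Ifnar1, ranged from 9.85 to 19.4 CPM, with 110 to 203 UMIs in a whole library. The upper value is the mean of proliferative-like ECs, whose 4 PBS libraries had a median of 9.85 and a highest value of 48.3 CPM. Arterial-like ECs (18.2 CPM) exceeded tip-like ECs (13.5 CPM) in Tyk2 in 8 of 8 libraries, by a log2 difference of 0.40 ± 0.22 (SD). They lay above the mean of the other 4 types in 7 of 8 libraries, by 0.58 ± 0.50 (SD).

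**Figure D1:**
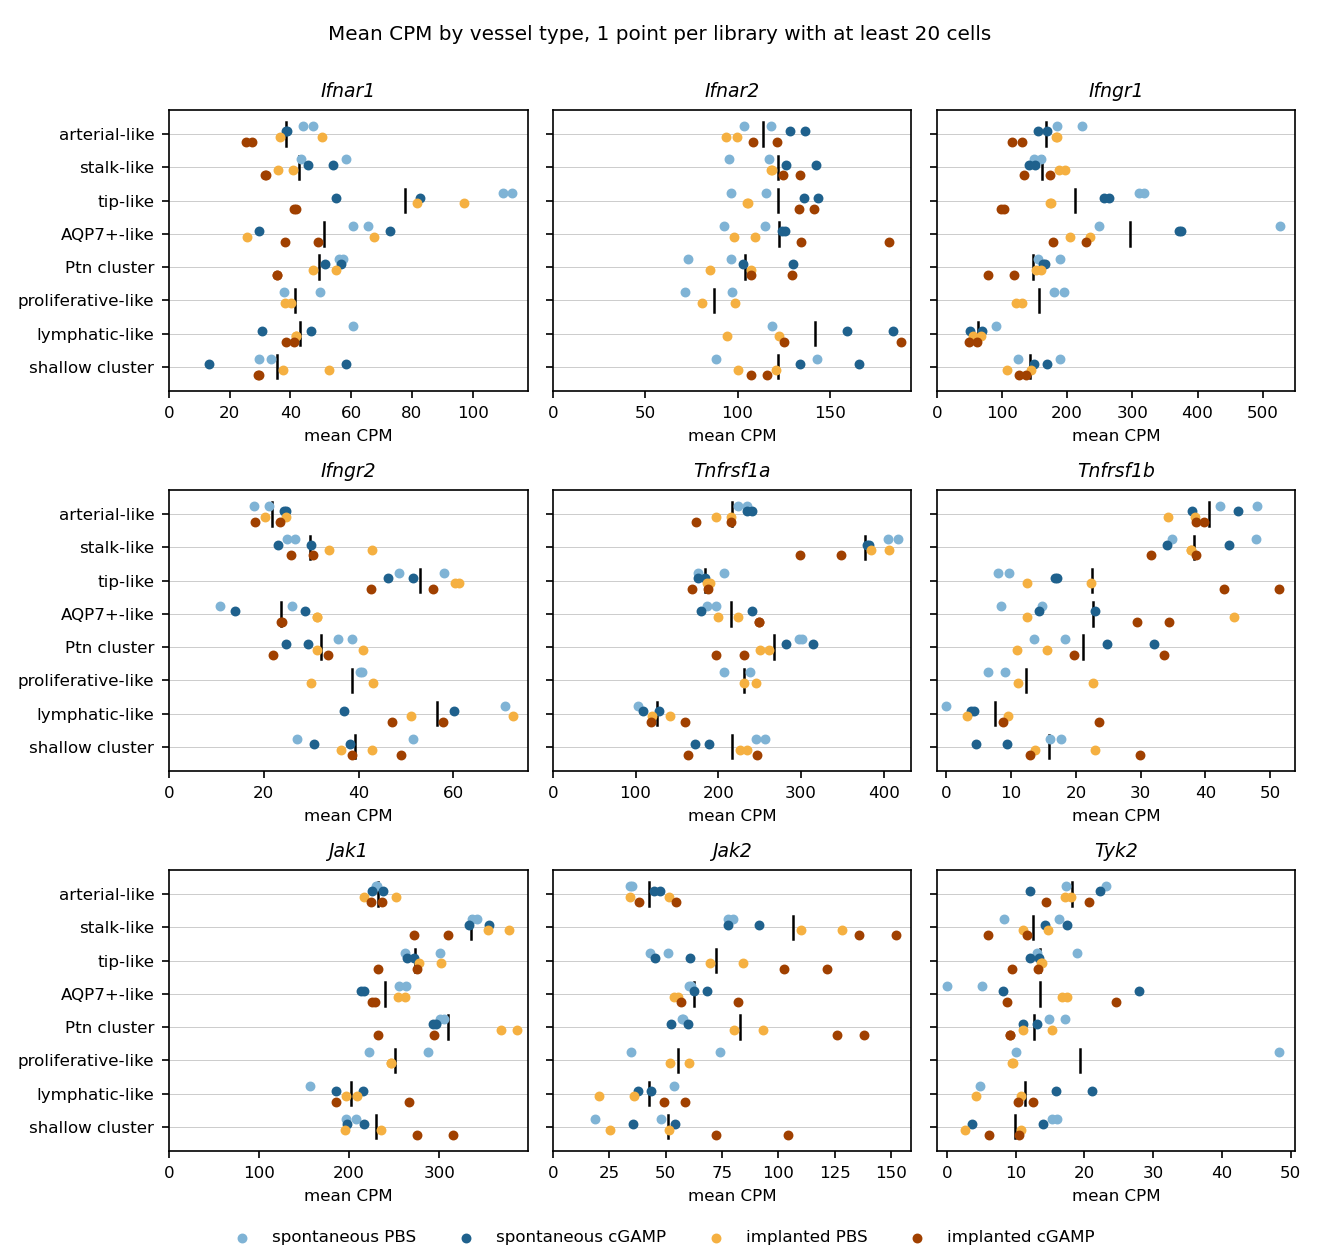
Mean CPM of each member (horizontal axis of each panel) in the vessel types and unnamed clusters (vertical axis), with 1 point per library coloured by group and a black bar at the mean over libraries, for libraries with at least 20 cells of the type. Among the types and clusters shown, Tnfrsf1a and Jak2 are highest in stalk-like ECs, and Jak1 is high in stalk-like ECs and the Ptn cluster. Ifnar1 and Ifngr2 are high in tip-like ECs, and Ifngr1 has its maximum among those shown in AQP7+-like ECs.

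The types were not uniform inside. Arterial-like ECs were made of a cluster led by Npr3 and Dkk2 (930 cells) and a cluster led by Gkn3 and Gper1 (580 cells). Jak1 was higher in the Npr3/Dkk2 cluster in 8 of 8 libraries (283 against 150.3 CPM, 0.91 ± 0.22 (SD) on the log2 scale), as was Tnfrsf1a in 8 of 8 (253 against 152 CPM, 0.74 ± 0.18 (SD) on the log2 scale) and Ifngr2 in 8 of 8 (27.8 against 12.9 CPM, 1.17 ± 0.85 (SD) on the log2 scale). Ifngr1 stood at 164 CPM in both. The Gkn3 cluster held 29.2% and 26.4% of arterial-like ECs in the spontaneous PBS and cGAMP groups, 38.6% in implanted PBS and 56.9% in implanted cGAMP, a shift to keep beside arterial-like values below. Its median depth was 7182 UMIs against 13195 in the Npr3/Dkk2 cluster.

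Stalk-like ECs were likewise made of a cluster led by Ackr1 and Fjx1 (937 cells) and a cluster led by Tmem108 and Ncam1 (189 cells), which could be compared in 3 libraries. In all 3 the Ackr1/Fjx1 cluster had more Jak2 (122 against 57.5 CPM), Jak1 (398 against 256 CPM) and Ifngr2 (40.2 against 18.2 CPM). Tnfrsf1a was higher in that cluster in 1 of the 3 libraries, at 388 against 436 CPM. The Tmem108/Ncam1 cluster held 12.6% and 7.25% of stalk-like ECs in the spontaneous PBS and cGAMP groups, 31.8% in implanted PBS and 6.55% in implanted cGAMP.

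The genes whose pattern was most like a member's were sought among 6324 genes averaging 20 CPM or more, by Pearson's r of log2 levels over 64 points, each a vessel type in a library. The points share libraries and depth, so r is a description. The closest genes to Ifngr1 were Ccdc85a (r = 0.84) and Adgrl4 (0.83), to Tnfrsf1a Vamp5 (r = 0.80) and Grrp1 (0.78) and to Tnfrsf1b Atp8b1 (r = 0.75) and Il6 (0.70). Jak1 was most like Il1r1 (r = 0.71) and Bace2 (0.68), Ifnar1 like Pcdh12 (r = 0.69) and Myo6 (0.68) and Ifngr2 like Galnt1 (r = 0.67) and Mpp6 (0.63). Ifnar2 had Shisa5 (r = 0.64) and H2-D1 (0.63) as its nearest, Jak2 had Lhx6 (r = 0.63) and Chd7 (0.61), and the sparse Tyk2 reached no more than 0.56, with Plbd2.

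At 3 h after cGAMP, members were called in implanted tumours and not in spontaneous ones. In spontaneous tumours none of the 9 members passed the test (limma on log2(CPM + 1), Benjamini-Hochberg adjusted p under 0.05 over 10424 genes), against 12.7% of all genes, and 1 of them, Ifnar2, had an unadjusted p under 0.05. In implanted tumours 4 members did, Jak2 rising and Ifnar1, Ifngr1 and Tnfrsf1a falling, against 25.0% of all genes (8.60% higher and 16.4% lower). The median log2 change over the members was -0.05 in spontaneous and -0.07 in implanted tumours, beside -0.10 over all genes in both. Under median-of-ratios scaling the median over all genes moved to -0.01 and 0.00, and the called genes went from 531 higher and 791 lower to 661 and 351 in spontaneous and from 896 and 1713 to 1189 and 1110 in implanted tumours. The difference between both models' responses passed limma's test for none of the members, at the adjusted level or at an unadjusted p under 0.05, against 0.662% of all genes, so a call in implanted tumours alone is not a shown difference from spontaneous tumours. Libraries of the treated and control groups did not overlap for 5 members in spontaneous tumours (2 higher and 3 lower after cGAMP) and for 6 in implanted tumours (3 and 3), against 60.3% of all genes (18.8% higher and 41.5% lower) and 63.1% (21.6% and 41.6%), so that the members stood apart about as often as other genes did. Values below are given as replicates 1 and 2 of each group.

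Ifnar1 fell in implanted tumours. It stood at 50.9 and 46.6 CPM after PBS and 31.6 and 35.6 CPM after cGAMP, so that both treated libraries lay below both controls, a log2 change of -0.53 ± 0.13 (SE) with an adjusted p of 0.0169. The call was lost without either implanted PBS library (adjusted p 0.103 without replicate 1 and 0.0551 without replicate 2) and without implanted cGAMP replicate 1 (0.0662). In spontaneous tumours Ifnar1 had 54.4 and 59.5 CPM after PBS and 43.4 and 55.2 CPM after cGAMP, groups that overlapped, with a log2 change of -0.21 ± 0.13 (SE) and an adjusted p of 0.314.

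Its partner Ifnar2 had the opposite sign. After cGAMP it reached 130.2 and 135 CPM from 108 and 102 CPM in spontaneous tumours and 116 and 146 CPM from 109 and 100.3 CPM in implanted tumours, and the treated libraries were above the controls in both models. The log2 changes of 0.34 ± 0.11 (SE) and 0.31 ± 0.11 (SE) did not pass the test (adjusted p 0.0768 and 0.0666), but did so in both models with summed UMIs (0.0177 and 0.0134) and with median-of-ratios scaling (0.0419 and 0.0285). In implanted tumours Ifnar2 also passed in cells with at least 2000 UMIs (0.0290) and without the shallow cluster (0.0324). In each model the chains of the type I receptor thus lay on opposite sides of 0.

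The interferon-γ receptor changed in 1 chain. Ifngr1 went from 162 and 167 CPM to 122 and 129 CPM in implanted tumours, a fall by 0.39 ± 0.08 (SE) on the log2 scale with an adjusted p of 0.00834, and both treated libraries lay below both controls. This call was lost without implanted PBS replicate 2 (0.0618). In spontaneous tumours Ifngr1 was at 190.1 and 217 CPM after PBS and at 182 and 185 CPM after cGAMP, again without overlap, but the log2 change of -0.15 ± 0.08 (SE) did not pass (adjusted p = 0.275). Ifngr2 had 39.8 and 35.7 CPM after PBS and 39.6 and 32.4 CPM after cGAMP in implanted tumours, and 32.5 and 39.4 and then 36.8 and 35.7 CPM in spontaneous tumours. Its groups overlapped in both models, with log2 changes of -0.07 and 0.02, though with summed UMIs the implanted change was -0.30 with an adjusted p of 0.0385.

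The TNF receptors lay on opposite sides of 0 in implanted tumours. Tnfrsf1a went from 253 and 245 CPM to 197 and 222 CPM, a log2 change of -0.25 ± 0.08 (SE) with an adjusted p of 0.0406, and the libraries did not overlap. Of the 4 calls this one was kept under the fewest alternatives, 9 of 22, and median-of-ratios scaling gave -0.15 with an adjusted p of 0.211. It was lost without every library but implanted cGAMP replicate 2, with adjusted p between 0.0594 and 0.176. In spontaneous tumours it had 264 and 259 CPM after PBS and 253 and 246 CPM after cGAMP (-0.07 ± 0.08 (SE) on the log2 scale, adjusted p = 0.613). Tnfrsf1b had 26.01 and 23.6 CPM after PBS and 34.3 and 29.0 CPM after cGAMP in implanted tumours, all treated above all controls, and a log2 change of 0.34 ± 0.13 (SE) that did not pass (adjusted p = 0.0915). Tnfrsf1b passed under 1 of 22 alternatives, median-of-ratios scaling (adjusted p = 0.0417). In spontaneous tumours its 23.2 and 26.4 CPM after PBS overlapped the 25.1 and 27.4 CPM after cGAMP (0.08, adjusted p = 0.733).

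Jak2 was the kinase that moved. In implanted tumours it rose from 73.8 and 62.2 CPM to 99.5 and 85.1 CPM, a log2 change of 0.44 ± 0.12 (SE) with an adjusted p of 0.0238, and both treated libraries lay above both controls. The call was lost without implanted PBS replicate 2 (0.180), without implanted cGAMP replicate 1 (0.109), without the shallow cluster (0.0617) and with no filter on low values (0.0557). In spontaneous tumours Jak2 had 47.5 and 52.4 CPM after PBS and 58.0 and 54.7 CPM after cGAMP, with a log2 change of 0.17 ± 0.12 (SE) and an adjusted p of 0.367. Jak1 had 292 and 279.6 CPM after PBS and 262 and 302 CPM after cGAMP in implanted tumours, and 278 and 284 and then 273 and 269 CPM in spontaneous tumours. Its log2 changes were -0.02 ± 0.08 (SE) and -0.05 ± 0.08 (SE), small beside those of Jak2. Tyk2, at 14.2 and 11.7 CPM after PBS and 10.0 and 12.9 CPM after cGAMP in implanted and at 15.3 and 17.0 and then 12.4 and 15.6 CPM in spontaneous tumours, had log2 changes of -0.17 ± 0.19 (SE) and -0.20 ± 0.19 (SE) in these models, with overlapping libraries in both.

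The types' shares of the cells differ between libraries, so the levels were also averaged, with the same weights in every library, over the 6 types and clusters that every library held, which leaves out lymphatic-like and proliferative-like ECs. The lymphatic marker list summed to 660 and 475 CPM after PBS and to 1770 and 1809 CPM after cGAMP in implanted tumours, and to 491 and 1086 and then 854 and 591 CPM in spontaneous tumours, and lymphatic-like ECs were those with the lowest Ifngr1 and Tnfrsf1a. In implanted tumours Ifnar1 then changed by -0.64 (adjusted p = 0.00583), Ifngr1 by -0.43 (0.00247) and Jak2 by 0.49 (0.00557) on the log2 scale, and all 3 stayed called. Tnfrsf1a had -0.17 and did not pass (0.155).

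**Figure D2:**
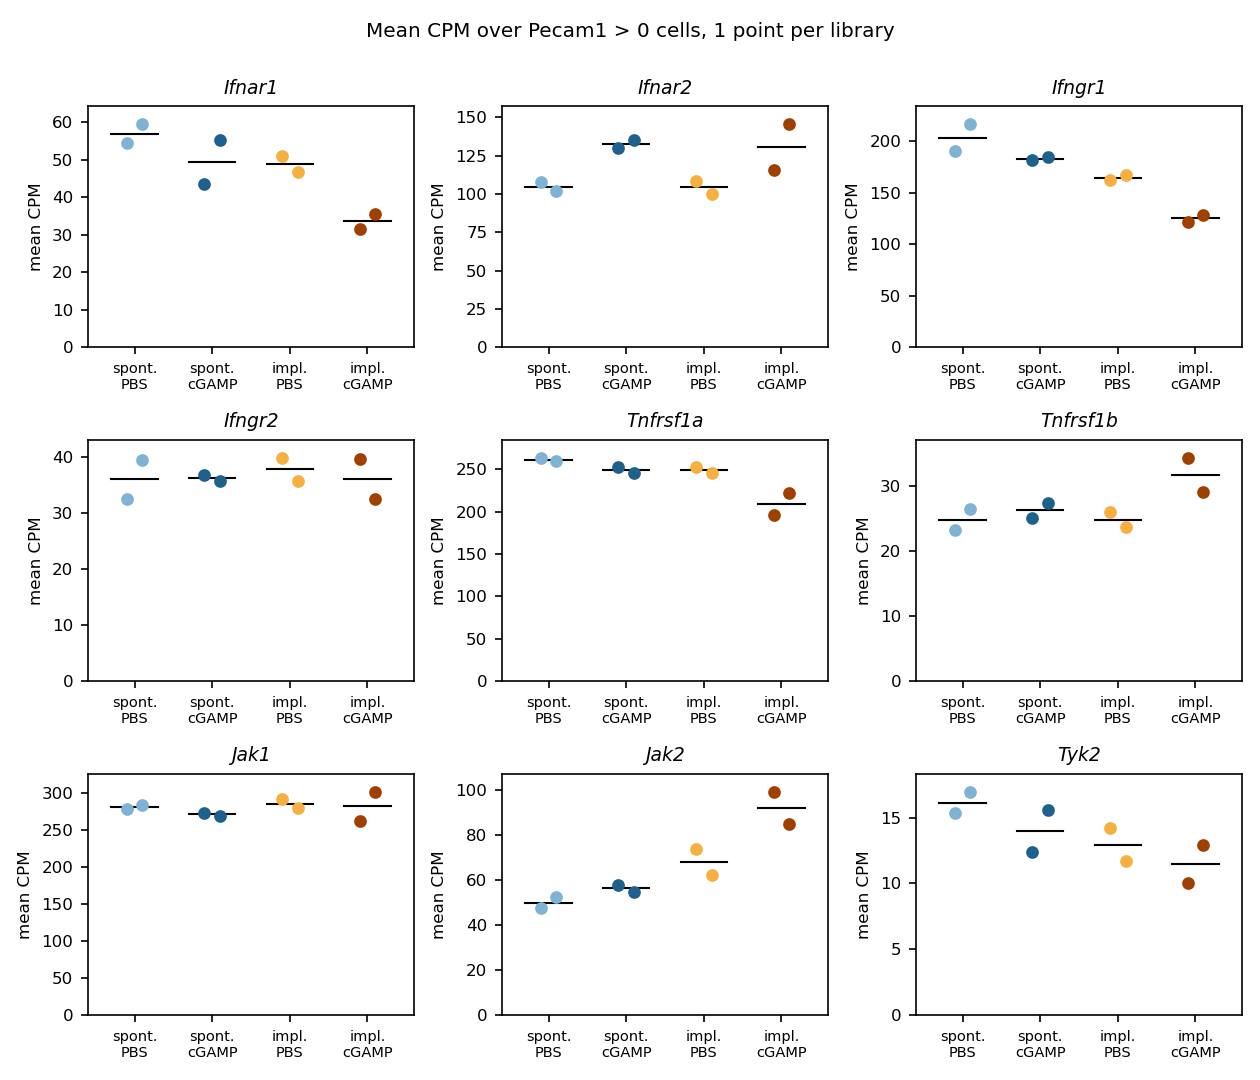
Mean CPM over Pecam1 > 0 cells (vertical axis of each panel) for each member in the 8 libraries, arranged by group, with 1 point per library and a line at the mean of the pair. In implanted tumours Jak2 is higher and Ifnar1, Ifngr1 and Tnfrsf1a are lower in both cGAMP libraries than in both PBS libraries.

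**Figure D3:**
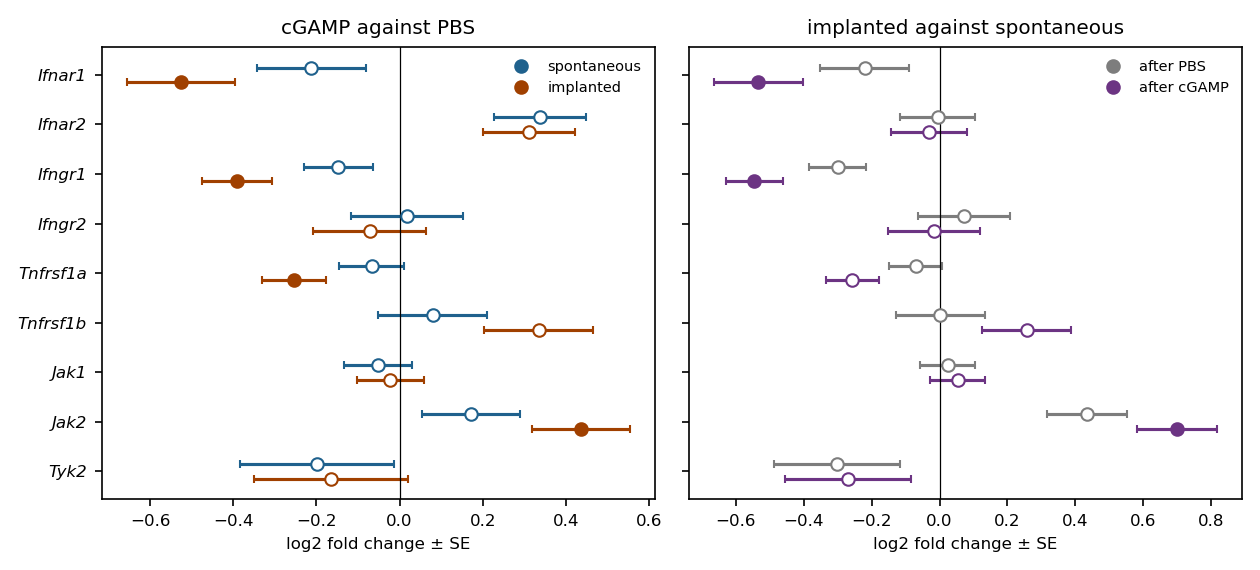
Log2 difference of each member (horizontal axis) in the cGAMP response of each tumour model (left) and between models after PBS and after cGAMP (right). Bars give the SE, filled points mark adjusted p under 0.05 and open points the rest. The difference of the responses is not drawn. Filled points appear for 4 members in the implanted cGAMP response and for 3 members between models after cGAMP. None appear in the spontaneous response or between models after PBS.

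Tip-like ECs carried the largest of the changes that passed when the cGAMP response was fitted within each vessel type. Over the 7 types and clusters tested in implanted tumours, 8 of 63 pairs of a member and a type passed, 2 higher and 6 lower, and over 6 types in spontaneous tumours 1 of 54 passed. The share of all genes called within a type ran from 0.976% (shallow cluster) to 17.8% (tip-like ECs) in implanted tumours. In spontaneous tumours it ran from 1.07% to 8.38% in the same pair. The difference between the models' responses passed for none of the 54 pairs, where the lowest adjusted p was 0.178, against 1.26% of genes in tip-like, 1.11% in stalk-like and 0.0878% in arterial-like ECs, 0.951% in the Ptn cluster and 0.0190% in the shallow cluster. Of these pairs, 4 had an unadjusted p under 0.05 by limma, beside 1400 of 10424 genes for this difference over all ECs. With finer clusters (resolution 1.0 in place of 0.5) only clusters that took a name were fitted, so the Ptn and shallow clusters were not tested. There 3 pairs passed in implanted tumours, a count that cannot be set against the 8 of 63. Proliferative-like ECs numbered 9 to 18 per library after cGAMP and were not tested.

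In tip-like ECs of implanted tumours, 3 of the 9 members passed, against 17.8% of the genes tested in that type. Ifnar1 went from 81.7 and 97.0 CPM to 41.1 and 41.7 CPM, a log2 change of -1.09 ± 0.20 (SE) with an adjusted p of 0.00150, and kept the call under 17 of 17 alternatives. Ifngr1 went from 176 and 174 CPM to 99.0 and 104 CPM (-0.78 ± 0.12 (SE), adjusted p = 0.000399, also called under 17 of 17 alternatives). Both receptor chains were thus lower in each treated library than in either control. Tnfrsf1b moved the other way, from 22.4 and 12.4 CPM to 42.9 and 51.3 CPM, a log2 change of 1.44 ± 0.31 (SE) with an adjusted p of 0.00488, which rests on 53 and 26 UMIs after PBS and 99 and 115 after cGAMP. Without implanted PBS replicate 2 its adjusted p was 0.0829. The immune marker list summed to 44.3 and 47.3 CPM in these cells after PBS and to 193 and 199 CPM after cGAMP, with Adgre1 at 0 in all 4 libraries, and 11 of its 14 genes were above 0 after PBS and 13 after cGAMP. The mural list went from 11.2 and 23.8 CPM to 58.7 and 160.3 CPM, with 8 and 5 and then 9 and 9 of its 10 genes above 0, and Myh11 at 0 in the second PBS and the first cGAMP library. The part of these cells in the 3 values was not tested.

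Tip-like ECs of spontaneous tumours gave the same signs for these 3 genes. Ifnar1 fell from 110.0 and 113 CPM to 54.9 and 82.5 CPM (-0.72 ± 0.20 (SE) on the log2 scale, adjusted p = 0.0346), 1 member of 9 called against 8.38% of genes, and the call held under 11 of 17 alternatives. It was lost without spontaneous cGAMP replicate 1 (0.348) and without either spontaneous PBS library (0.128 and 0.147). Tnfrsf1b had 7.995 and 9.60 CPM after PBS and 17.0 and 16.7 CPM after cGAMP, with a log2 change of 0.87 ± 0.31 (SE) that did not pass (adjusted p = 0.103). Ifngr1 had 317 and 311 CPM after PBS and 264 and 256 CPM after cGAMP (-0.27, adjusted p = 0.193). After PBS, tip-like Ifngr1 was lower in both implanted than in both spontaneous libraries, a difference not tested within types. The tip-like libraries of treated and control mice did not overlap for any of the 3 genes in either model. The share of all genes that stood apart in this way was not taken within types. Over all ECs it was 60.3% in spontaneous and 63.1% in implanted tumours. In tip-like ECs of spontaneous tumours the immune list summed to 29.0 and 13.2 CPM after PBS and to 117 and 44.0 CPM after cGAMP. Of its 14 genes 10 and 7 and then 10 and 11 were above 0. The mural list had 162 and 234 CPM and then 174 and 232 CPM. The part of these cells in the spontaneous tip-like values was not tested.

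Arterial-like ECs of implanted tumours had lower Ifnar1 and Ifngr1 as well, 2 of 9 members called against 11.5% of genes. Ifngr1 fell from 182 and 185 CPM to 130.1 and 116 CPM (-0.58 ± 0.13 (SE), adjusted p = 0.0102), a call kept under 12 of 17 alternatives and lost without either implanted PBS library (0.0765 and 0.0805) or implanted cGAMP replicate 2 (0.0643). The direction was present in both arterial-like clusters, with 166 and 165 CPM against 105 and 98.1 CPM in the Npr3/Dkk2 cluster and 209.6 and 215 CPM against 147 and 133 CPM in the Gkn3 cluster. Ifnar1 fell from 50.3 and 36.6 CPM to 27.2 and 25.5 CPM (-0.68 ± 0.20 (SE), adjusted p = 0.0420) but kept its call under only 6 of 17 alternatives, and of the 8 libraries only implanted PBS replicate 2 could be left out without its loss (0.0503 to 0.394 without each of the others). In cells with at least 2000 UMIs it did not pass either (0.108). In the Npr3/Dkk2 cluster its libraries overlapped (55.5 and 35.05 CPM after PBS and 37.8 and 34.3 CPM after cGAMP), whereas in the Gkn3 cluster they did not (41.4 and 38.9 and then 20.1 and 17.3 CPM). The share of all genes that stood apart was not taken within these clusters. In arterial-like ECs of implanted tumours the immune list summed to 20.9 and 10.7 CPM after PBS and to 118 and 53.2 CPM after cGAMP, with 12 and 9 and then 13 and 13 of its 14 genes above 0. Csf1r was at 0 in replicate 1 of both groups and C1qa in replicate 2 of both. The epithelial tumour list had 144 and 144 CPM and then 496 and 78.1 CPM, with all 8 genes above 0 in each library. The mural list had 279 and 212 CPM and then 392 and 161 CPM, with 8 or 9 of its 10 genes above 0. The part of these cells in the arterial-like values was not tested.

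The Ptn cluster of implanted tumours held the other 3 calls, 3 of 9 members against 11.0% of genes. Ifngr1 fell from 152 and 160.1 CPM to 118 and 78.8 CPM (-0.69 ± 0.19 (SE), adjusted p = 0.0286). Jak1, which did not pass over all ECs, fell from 386 and 369 CPM to 232 and 294 CPM (-0.53 ± 0.14 (SE), adjusted p = 0.0257), and Jak2 rose from 93.3 and 80.2 CPM to 126 and 138 CPM (0.60 ± 0.17 (SE), adjusted p = 0.0370). The treated libraries lay apart from the controls for all 3 genes, as they did for 63.1% of all genes over all ECs of implanted tumours. No such share was taken within this cluster. These calls were kept under 9 of 16, 11 of 16 and 6 of 16 alternatives, and each was lost without either implanted PBS library, with adjusted p from 0.0931 to 0.281. Leaving out implanted cGAMP replicate 2 also ended the calls of Ifngr1 (0.137) and Jak2 (0.0939), and leaving out replicate 1 that of Jak1 (0.0865), while several spontaneous libraries moved Ifngr1 and Jak2 to between 0.0516 and 0.0569. In cells with at least 2000 UMIs Jak2 did not pass (0.0607). The immune list in this cluster summed to 34.3 and 12.2 CPM after PBS and to 129.95 and 65.0 CPM after cGAMP in implanted tumours, with 11 and 5 and then 11 and 13 of its 14 genes above 0 and Adgre1 at 0 in all 4 libraries. The mural list went from 61.7 and 19.4 CPM to 151 and 44.3 CPM, with 9 and 7 and then 9 and 6 of its 10 genes above 0. The epithelial tumour list had 152 and 104 CPM and then 283 and 81.6 CPM, with all 8 genes above 0. The part of these cells in the 3 calls was not tested.

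By limma no member passed in stalk-like, AQP7+-like or lymphatic-like ECs or in the shallow cluster. The share of genes called in implanted tumours was 11.0%, 1.26%, 2.45% and 0.976% in these, and in spontaneous tumours 5.57% in stalk-like ECs, 1.38% in AQP7+-like ECs and 1.07% in the shallow cluster. In arterial-like ECs and the Ptn cluster of spontaneous tumours, where no member passed either, it was 5.19% and 3.57%. In stalk-like ECs of implanted tumours Jak1 had 378 and 354 CPM after PBS and 309 and 272 CPM after cGAMP (log2 change -0.33 ± 0.12 (SE), adjusted p = 0.0891) and Tnfrsf1a had 407 and 385 CPM after PBS and 298 and 348 CPM after cGAMP (-0.30 ± 0.12 (SE), adjusted p = 0.128). Both treated libraries were lower for each gene, as they were for 41.6% of all genes over all ECs of implanted tumours. No such share was taken within stalk-like ECs or their clusters. The Tmem108/Ncam1 cluster, lower in Jak1, held 31.8% of these cells after PBS and 6.55% after cGAMP. In the Ackr1/Fjx1 cluster alone Jak1 had 418 and 425 CPM after PBS and 317 and 275 CPM after cGAMP, and Tnfrsf1a had 409 and 361 CPM and then 290.4 and 352 CPM, so that the treated libraries were the lower ones there as well. Ifnar2 changed by a positive log2 value in all 6 types of spontaneous and all 7 of implanted tumours, from 0.02 to 0.59, and none of these passed. Jak2 was positive in all 7 types of implanted tumours and passed in the Ptn cluster alone. AQP7+-like ECs had 26 to 49 cells per library, which gives wide errors: the log2 change of Ifnar1 there in implanted tumours was 0.05 ± 0.49 (SE), an error that leaves changes of the size called elsewhere undetectable at this depth.

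**Figure D4:**
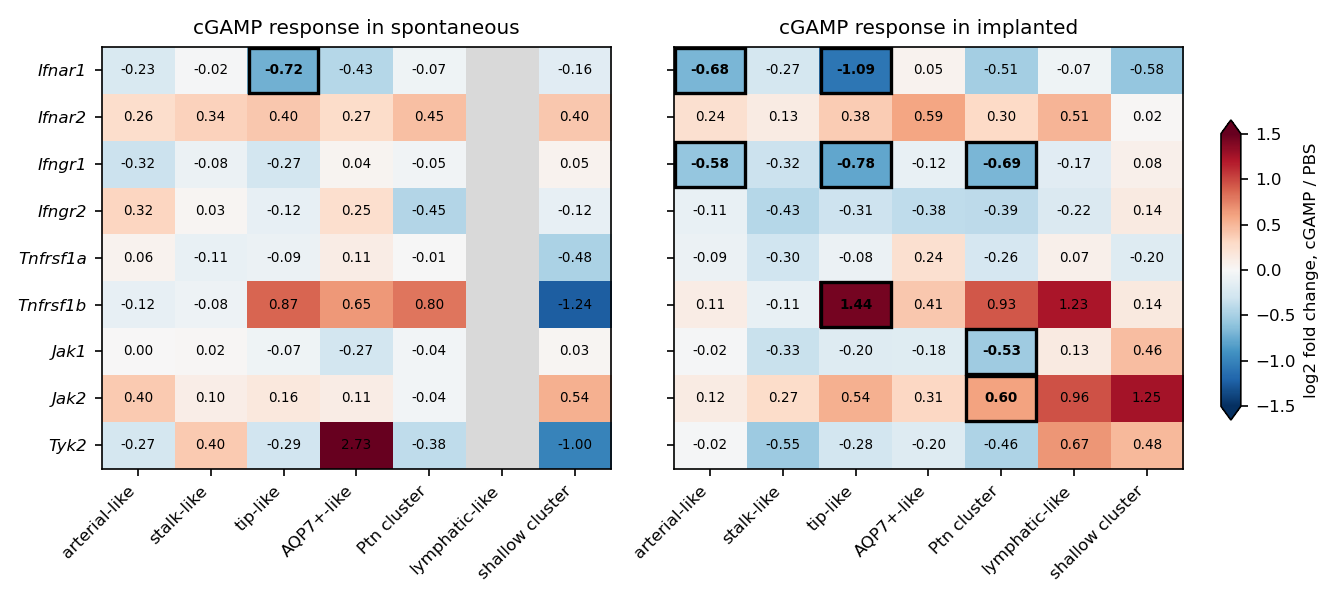
Log2 change of each member (rows) from PBS to cGAMP within each vessel type or cluster (columns), in spontaneous and implanted tumours, with the colour and the printed number giving the change, boxed bold cells marking adjusted p under 0.05 and grey cells marking types not tested. The boxed cells lie in tip-like and arterial-like ECs and in the Ptn cluster, 1 in spontaneous and 8 in implanted tumours.

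**Figure D5:**
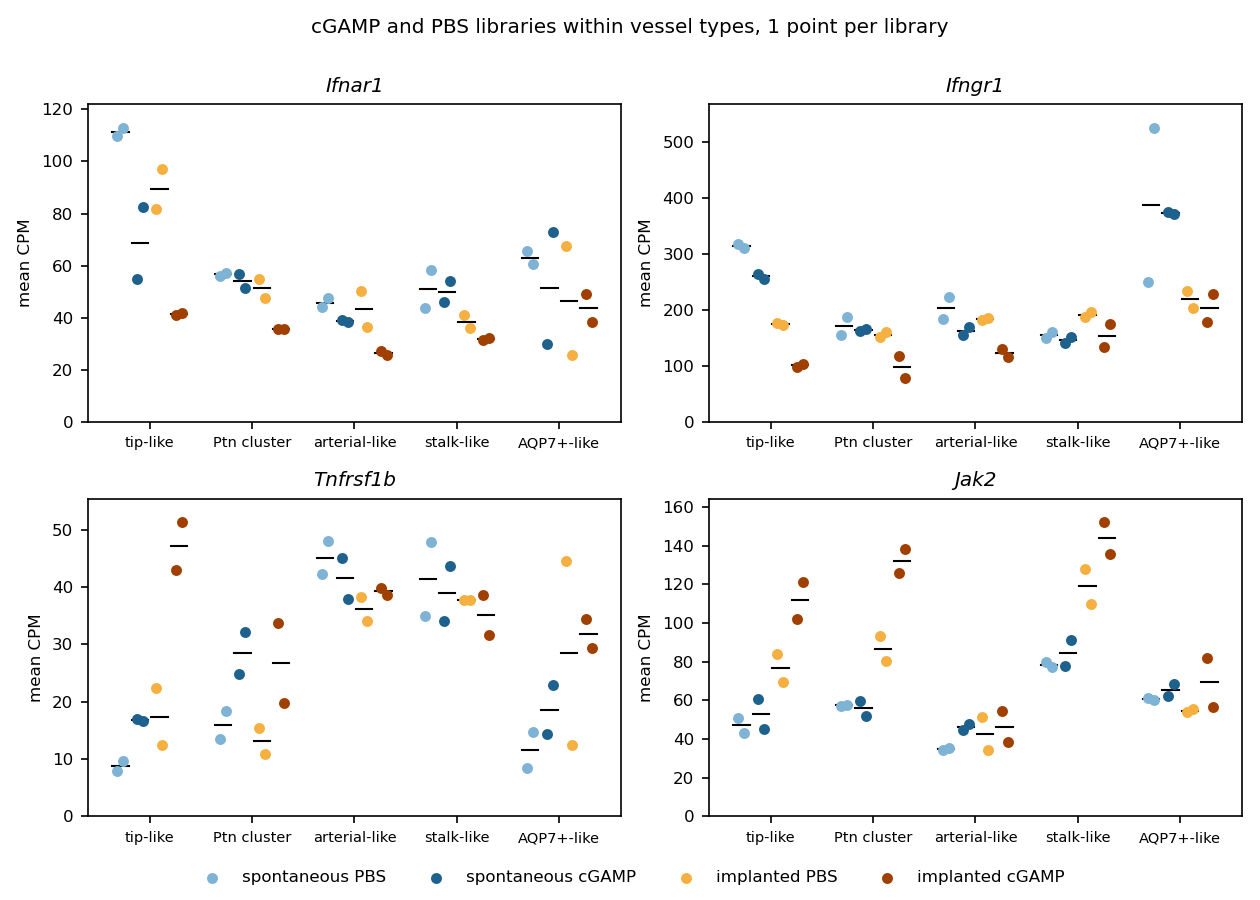
Mean CPM of Ifnar1, Ifngr1, Tnfrsf1b and Jak2 (vertical axis of each panel) by vessel type and group, with 1 point per library. In tip-like ECs of implanted tumours both cGAMP libraries lie below both PBS libraries for Ifnar1 and Ifngr1 and above them for Tnfrsf1b.

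Between the tumour models, no member passed limma's test after PBS, against 7.83% of all genes, and 2 (Jak2 and Ifngr1) had an unadjusted p under 0.05. Jak2 came closest, at 73.8 and 62.2 CPM in implanted and 47.5 and 52.4 CPM in spontaneous tumours, a log2 difference of 0.43 ± 0.12 (SE) with an adjusted p of 0.0540. It passed under 9 of 22 alternatives, among them summed UMIs (0.0126) and median-of-ratios scaling (0.0317). Ifngr1 had 162 and 167 CPM in implanted and 190.1 and 217 CPM in spontaneous tumours (-0.30 ± 0.08 (SE), adjusted p = 0.0600). It passed under 3 of 22 alternatives, without the non-endothelial clusters (0.0488) and without either implanted cGAMP library (0.0435 and 0.0434), whereas Jak2 passed in cells with at least 2000 UMIs (0.0402). The libraries of the models did not overlap for either gene, nor for 3 other members, against 58.0% of all genes.

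After cGAMP 3 members differed between models, against 13.8% of all genes (5.23% higher and 8.53% lower in implanted tumours). Jak2 was higher in implanted tumours, with 99.5 and 85.1 CPM against 58.0 and 54.7 CPM in spontaneous tumours (0.70 ± 0.12 (SE) on the log2 scale, adjusted p = 0.00684). Ifngr1 was lower, with 122 and 129 CPM against 182 and 185 CPM (-0.54 ± 0.08 (SE), adjusted p = 0.00500), and so was Ifnar1, with 31.6 and 35.6 CPM against 43.4 and 55.2 CPM (-0.53 ± 0.13 (SE), adjusted p = 0.0282). Libraries of the models did not overlap for these 3 genes nor for 2 others, Tnfrsf1a and Tnfrsf1b, against 57.1% of all genes. Without spontaneous cGAMP replicate 2 none of the 3 passed, with adjusted p of 0.0764 for Jak2, 0.0620 for Ifngr1 and 0.202 for Ifnar1. This comparison uses the same implanted cGAMP libraries as the implanted response, so that it is not a separate observation. The 4 other receptor genes, Jak1 and Tyk2 did not pass here, with log2 differences between -0.27 for Tyk2 and 0.26 for Tnfrsf1b. Without the shallow cluster Tnfrsf1a did, as a 4th member and lower in implanted tumours (-0.26 on the log2 scale, adjusted p = 0.0318).

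Other genes of the same pathways gave larger changes. Of a list of 42 ligands, other chains, STATs, inhibitors and TNF receptor adaptors, 37 were tested. In spontaneous tumours 8 were called higher and none lower, against 5.09% and 7.59% of all genes, and in implanted tumours 12 were called higher and 1 lower, against 8.60% and 16.4%. The median log2 change over the 37 genes was 0.06 and 0.12, beside -0.10 over all genes.

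Downstream of the interferon receptors, Stat2 and Irf9, parts of the transcription factor complex of type I interferon, rose in both models. Stat2 went from 25.6 and 24.2 CPM to 126 and 119.8 CPM in spontaneous tumours (log2 change 2.26) and from 51.4 and 41.9 CPM to 133 and 157 CPM in implanted tumours (1.62). Irf9 changed by 1.72 and 0.82 on the log2 scale. The responses themselves differed for none of the list higher and for 1 gene lower, Irf9, against 0.460% of all genes called lower, by -0.91 with an adjusted p of 0.0241 (called under 16 of 22 alternatives), the implanted response being the smaller. After PBS, Stat2, Irf9, Socs1 and Usp18 were already higher in implanted than in spontaneous tumours, by 0.87, 0.67, 1.36 and 1.21 on the log2 scale. Of the whole list 5 genes were higher and none lower, against 3.39% and 4.44% of all genes. Stat3, Stat5a, Stat5b and Stat6 did not pass in either response.

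Among 9 inhibitors tested, 3 rose in spontaneous and 2 in implanted tumours. Usp18, which binds Ifnar2 and dampens type I signalling, went from 7.04 and 12.2 CPM to 161 and 158 CPM in spontaneous tumours and from 26.8 and 19.5 CPM to 234 and 287 CPM in implanted tumours, log2 changes of 3.96 and 3.45. Socs1, a direct inhibitor of JAKs, changed by 2.03 and 1.44, and Socs3 by 0.32 in spontaneous tumours (adjusted p = 0.0335) and 0.09 in implanted tumours, where it did not pass (adjusted p = 0.488).

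On the TNF side, Casp8, the initiator caspase of the death receptors, rose by 0.37 and 0.67 in spontaneous and implanted tumours, and its inhibitor Cflar by 0.41 and 0.77. Birc2, Birc3 and Tnfaip3, which regulate ubiquitin chains at the receptor complex, passed in implanted tumours, with log2 changes of 0.58, 0.97 and 1.06, and had 0.10, 0.33 and 0.41 without passing in spontaneous tumours. The other 11 of 16 adaptors and regulators did not pass in either response. Il6st, the shared chain of the interleukin-6 receptor family, fell by 0.69 in implanted tumours (adjusted p = 0.0165) and had -0.28 in spontaneous tumours.

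Ligand transcripts were scarce in these sorted cells. Tnf had 2.99 and 1.61 CPM after PBS and 8.10 and 9.66 CPM after cGAMP in implanted tumours (log2 change 1.61, adjusted p = 0.00717), and 2.99 and 4.24 and then 4.08 and 2.68 CPM in spontaneous tumours (-0.08, adjusted p = 0.903). Ltb, a membrane ligand of the same family, had 4.04 and 2.15 CPM after PBS and 11.1 and 21.9 CPM after cGAMP in implanted tumours (2.06, adjusted p = 0.00372). Both rose in the libraries in which the immune marker list rose, and the part of immune cells in these values was not tested. Ifnb1 was at 0 in 6 libraries and reached 0.0165 and 1.49 CPM in implanted cGAMP replicates 1 and 2, and Ifng did not exceed 2.52 CPM in any library, so both stayed under the filter, as did Lta, Ifnlr1 and Ptpn6.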

How the data were processed

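Single-cell libraries (10x Chromium 3′ v3) of sorted ECs were aligned by the authors to mm10 with Cell Ranger 3.0.0 and handled in Seurat 3.1.1, per the labels and the study's methods. Cells with under 500 genes or over 10% mitochondrial UMIs and genes in under 3 cells had been removed. The deposited values are the natural log of 1 plus UMIs per 10000 of the cell's total. UMIs were recovered from them, with 100% of values whole within 0.01, and every column was used (0 left out).

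A level is the mean CPM over the Pecam1 > 0 cells of a library. Because the deposited values are normalized, the count test planned for raw counts was replaced by limma 3.58.1 (trend, empirical Bayes) on log2(CPM + 1), over genes with at least 5 CPM in 2 libraries, with all 8 libraries in 1 fit, 5 contrasts and Benjamini-Hochberg adjustment at 0.05. Fold changes on this scale understate those of low genes. Total UMIs of the Pecam1 > 0 cells were 7451522 to 16338968 per library. The fit was tested on simulated data.

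Vessel types came from Seurat 5.3.0 anchor integration (2500 features, 30 components, resolution 0.5) without 578 genes: the members, the pathway list and 535 genes raised at least 2-fold by cGAMP. A cluster took a name from at least 3 markers detected in 20% of its cells with a log2 fold of 0.5 over the rest, with 1 or more of them among its 10 leading genes or 75% of the list passing. The 75% condition was set after the clusters were seen and kept a 60-cell cluster led by Ccl20 out of the lymphatic-like class (1.21% of cells after PBS and 0.587% after cGAMP in spontaneous tumours, 0.191% and 1.36% in implanted tumours). Types were compared where a library had at least 20 of their cells. No doublet caller was run, and an alternative left out the 5% of cells with most UMIs. Alternatives also changed the pseudocount (5 and 0.1), filter, scaling, cells used, makeup, clusters and libraries, and 1, without the shallow cluster, was added after seeing the data. All 9 members are named, the pathway genes by calls in both models or as ligands, and the 2 most alike genes of each member by r. Pathway genes called in 1 model, and Stat3, Stat5a, Stat5b, Stat6 and Il6st, were named after their values were seen. An item of the pathway list is counted but not reported here. The members, lists and tests were chosen with earlier results of these data known. Gene positions are from GRCm38 with GENCODE vM21, and promoters from RefSeq. Python 3.11.15, pandas 2.3.3, numpy 2.4.6, scipy 1.17.1, matplotlib 3.10.9 and R 4.3.3 were used.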

Additional observations from a re-analysis of the deposited data

Results flagged for a closer look

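The interferon regulator Irf9, a gene of the pathway list, was the 1 pathway gene whose cGAMP response differed between the tumour models by a test of the difference itself. The implanted response was smaller by a log2 value of -0.91 (adjusted p = 0.0241, limma over 10424 genes), with log2 changes of 1.72 in spontaneous and 0.82 in implanted tumours, and the level after PBS was higher in implanted tumours by 0.67. The call held under 16 of 22 alternatives. No member had a response that differed between models in this way. Groups of 2 libraries are too small for a test of single libraries that stand apart.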

How the results depend on the processing

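No called value of a member changed sign under the 22 alternatives run for each comparison over all ECs or the 16 or 17 run within vessel types. The differences between tip-like and arterial-like ECs for Ifnar1 and Ifngr2, between stalk-like and tip-like ECs for Tnfrsf1a and between stalk-like and arterial-like ECs for Jak1 and Jak2 kept their direction under the 5 alternatives run for them, which were not run for lymphatic-like or proliferative-like ECs or the shallow cluster. The counts of calls moved more, and the cause was not tested beyond what each setting leaves out. With no filter on low values more genes shared the adjustment, and the genes called fell to 812 in the spontaneous response, 0 in the difference of the responses, 327 between models after PBS and 784 between models after cGAMP, while the members called in the implanted response fell to 2 and the pairs of member and vessel type to 0 in spontaneous and 4 in implanted tumours. With summed UMIs 2839 genes were called in the spontaneous response, 112 in the difference and 1317 between models after PBS, with 3 and 13 pairs within vessel types. Shares of all genes within types were not set beside these counts of pairs. Nor were they set beside the counts of pairs given below for finer clusters and with single libraries left out. The difference of the responses had 43 genes in all deposited cells, 112 in endothelial clusters whatever their Pecam1 count and 177 with a fixed vessel-type makeup. The finer clusters had 3 pairs in implanted tumours, from named types alone, since unnamed clusters were not fitted there. In the spontaneous response 1 member was called, Ifnar2, with median-of-ratios scaling, with summed UMIs, in endothelial clusters and with a fixed makeup. Between models after PBS 1 member was called: Jak2 with the same 4 settings, in all deposited cells, without proliferative-like cells and in cells with at least 2000 UMIs, and Ifngr1 without non-endothelial clusters.

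Leaving out each of the 8 libraries in turn, where the lone library of a group is assumed to vary like the rest, gave 448 to 1808 genes and 0 to 1 members called in the spontaneous response, 1265 to 2495 genes and 0 to 4 members in the implanted response, and 2 to 171 genes in the difference. Between models it gave 212 to 1234 genes and 0 to 2 members after PBS and 156 to 1447 genes and 0 to 4 members after cGAMP, and within vessel types 0 to 1 pairs in spontaneous and 3 to 7 in implanted tumours. The implanted response had no member called without implanted PBS replicate 2, and the models after cGAMP none without spontaneous cGAMP replicate 2. The replicate numbers did not pair the samples, with correlations of same-numbered deviations from -0.22 to 0.13, and with the replicate number as a replicate block 1230, 2524, 58, 741 and 1362 genes were called in the 5 comparisons in the order above, with 0, 3, 0, 0 and 3 members.

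Values that were not called and lay near 0 changed sign, on the log2 scale, as follows. In endothelial clusters whatever their Pecam1 count this held for Ifnar2 (0.039) in the response difference, Ifnar2 (0.0013) between models after cGAMP and Tnfrsf1b (-0.0071) and Jak1 (-0.014) between models after PBS. In cells with at least 2000 UMIs this held for Ifnar2 (0.046) and Tyk2 (-0.20) in the response difference, Ifngr2 (-0.080) in the spontaneous response and Ifngr2 (-0.065) between models after PBS. Without the shallow cluster this held for Ifnar2 (0.031), Jak1 (-0.026) and Tyk2 (-0.060) in the response difference, Ifnar2 (0.0062) and Tnfrsf1b (-0.0049) between models after PBS and Ifnar2 (0.037) and Jak1 (-0.0089) between models after cGAMP. With median-of-ratios scaling this held for Ifnar2 (0.072) and Tnfrsf1a (0.0085) between models after PBS, Ifnar2 (0.051) and Ifngr2 (0.064) between models after cGAMP, Ifngr2 (0.027) and Jak1 (0.080) in the implanted response and Tnfrsf1a (0.031), Jak1 (0.046), Ifngr1 in the Ptn cluster (0.018), Jak1 in the Ptn cluster (0.030) and Jak2 in the Ptn cluster (0.032) in the spontaneous response. With summed UMIs this held for Ifnar2 (0.021) between models after PBS, Ifnar2 (0.017) and Jak1 (-0.0014) between models after cGAMP, Ifngr2 (-0.015) in the spontaneous response and Jak1 (-0.078) and Tyk2 (-0.16) in the response difference. Without proliferative-like cells this held for Ifnar2 (0.00055) and Tnfrsf1b (-0.0029) between models after PBS, Ifngr2 (0.0086) between models after cGAMP and Tyk2 (-0.065) in the response difference. Without non-endothelial clusters this held for Ifngr2 (-0.031) in the spontaneous response, Ifngr2 (0.057) between models after cGAMP and Tnfrsf1b (-0.014) between models after PBS. With a fixed vessel-type makeup this held for Ifngr2 (-0.080) in the spontaneous response, Ifngr2 (0.054) and Jak1 (-0.0091) between models after cGAMP, Tnfrsf1b (-0.050) between models after PBS and Jak1 (-0.13) in the response difference. In all deposited cells this held for Ifngr2 (-0.044) and Jak1 (-0.013) between models after PBS and Jak1 (0.043) in the implanted response. Without the 5% of cells with most UMIs this held for Ifngr2 (0.012) between models after cGAMP and Tnfrsf1b (-0.0038) between models after PBS. Leaving out single libraries gave ranges that cross 0. In the response difference they were -0.19 to 0.14 for Ifnar2, -0.23 to 0.050 for Ifngr2, -0.071 to 0.13 for Jak1 and -0.13 to 0.20 for Tyk2. Between models after PBS they were -0.063 to 0.051 for Ifnar2, -0.062 to 0.21 for Ifngr2, -0.086 to 0.090 for Tnfrsf1b and -0.0067 to 0.054 for Jak1. Between models after cGAMP they were -0.20 to 0.13 for Ifnar2, -0.16 to 0.12 for Ifngr2 and -0.048 to 0.15 for Jak1. In the spontaneous response they were -0.12 to 0.15 for Ifngr2, -0.0084 to 0.17 for Tnfrsf1b, -0.19 to 0.089 for Ifngr1 in the Ptn cluster and -0.14 to 0.061 for Jak2 in the Ptn cluster. In the implanted response they were -0.21 to 0.068 for Ifngr2, -0.12 to 0.079 for Jak1 and -0.33 to 0.00094 for Tyk2.

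Depth limits Tyk2, Tnfrsf1b and Ifngr2 most, with 110 to 203, 169 to 449 and 312 to 637 UMIs in a whole library, and every member in AQP7+-like and lymphatic-like ECs. With 2 libraries in a group, each change is judged against the spread within the 4 groups. Averaging CPM over cells gives shallow cells the same weight as deep ones, and implanted cGAMP replicate 1 had the most shallow cells.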
